A study of Mus musculus with 7 samples.

Results

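The 4 genes described here are Runx1, Runx2 and Runx3, which encode the mammalian RUNX transcription factors, and Cbfb, which encodes their shared partner. They were chosen by name, out of 21755 protein-coding genes on the autosomes and chromosome X, and each was taken with 100 kb on each side of its gene body. RUNX proteins bind DNA through the Runt domain, and the CBFβ subunit, which does not itself contact DNA, strengthens that binding. In the ovary, RUNX1 takes part in the maintenance of granulosa cell identity, and Runx1, Runx2 and Cbfb are known from the response of granulosa cells to the ovulatory signal and from the formation of the corpus luteum. RUNX3 is best known from T cells, sensory neurons and epithelia. ERβ, the receptor encoded by Esr2, is the main estrogen receptor of granulosa cells and binds DNA at the estrogen response element (ERE), a pair of inverted half-sites.

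The data were chromatin immunoprecipitation sequencing (ChIP-seq) tracks of whole mouse ovary. The study asked where endogenous ERβ binds chromatin in this tissue. The first 3 tracks, ERβ ChIP replicates 1 to 3, came from chromatin enriched with a mouse monoclonal ERβ antibody. The other 2, Input replicates 1 and 2, were compared with them as background. All 5 libraries came from ovaries of C57BL/6J females that express ERβ, cross-linked with formaldehyde. According to the methods of the study, each ChIP replicate pooled the ovaries of several mice of mixed age, from juvenile to adult, so cell types and cycle stages are averaged. The knockout ChIP libraries of the series were not analysed here. No RNA was measured in these libraries, so the tissue label could not be checked against marker genes, and nothing is shown on whether the 4 genes were expressed.

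Each track holds signal that the authors scaled to a common library total, and the mean over the genome lay between 0.362 and 0.370 in the 5 libraries. Sequencing depth cannot be read from such a track, and the precision rests on the 3 ChIP libraries and the 2 inputs. Signal was averaged in windows of 200 bp, and the fold is the ChIP signal over the mean of both inputs, where an input mean under 0.368, the mean of the genome, was raised to it. A window over 4-fold in at least 2 ChIP libraries was called, and called windows no more than 200 bp apart were joined into a site. Since sites are chosen on this fold, their folds are a description. No test was made of the sites alone, and limma was run over windows of the whole genome.

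Called ERβ signal was found around Runx1 and Cbfb, whereas Runx2 and Runx3 held none. Over the 4 gene regions, 5 of 7243 windows were called, or 0.0690%, beside 0.0444% of all windows of the genome. They formed 4 sites, 3 of them in the Runx1 region and 1 in Cbfb. At the lower level of 2-fold in at least 2 ChIP libraries, 24 windows passed, or 0.331%, beside 0.315% of the genome. By gene, 16 of these lay in the Runx1 region, 5 in the Runx2 region, 1 in the Runx3 region and 2 in the Cbfb region. When the inputs were set against each other, no window in any of the 4 regions was over 4-fold. The share over the genome is not given for this comparison, so nothing is read from that count.

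The sequences of the 4 sites are given here because they differ in how closely they hold an ERE, from 1 substitution to 3, with the same number in Runx1 sites 1 and 3. Each is the 200 bp with the highest mean ChIP signal, from mm10, plus strand, 5′ to 3′. Capitals mark the 13 bases closest to the ERE, and the coordinates are chr16:92516111-92516310, chr16:92579101-92579300, chr16:92650191-92650390 and chr8:105186171-105186370, in this order.
Runx1 site 1: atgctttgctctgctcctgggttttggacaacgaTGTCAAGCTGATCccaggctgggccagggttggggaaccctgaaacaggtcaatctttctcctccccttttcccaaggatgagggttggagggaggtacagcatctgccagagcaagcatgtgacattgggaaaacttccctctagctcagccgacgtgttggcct
Runx1 site 2: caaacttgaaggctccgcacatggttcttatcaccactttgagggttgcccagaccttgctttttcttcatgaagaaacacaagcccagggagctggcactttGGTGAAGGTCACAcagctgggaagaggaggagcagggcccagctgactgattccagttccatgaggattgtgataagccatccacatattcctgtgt
Runx1 site 3: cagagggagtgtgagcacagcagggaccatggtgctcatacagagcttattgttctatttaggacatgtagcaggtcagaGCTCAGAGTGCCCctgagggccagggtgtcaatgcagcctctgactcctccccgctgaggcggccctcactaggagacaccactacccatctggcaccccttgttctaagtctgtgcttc
Cbfb site 1: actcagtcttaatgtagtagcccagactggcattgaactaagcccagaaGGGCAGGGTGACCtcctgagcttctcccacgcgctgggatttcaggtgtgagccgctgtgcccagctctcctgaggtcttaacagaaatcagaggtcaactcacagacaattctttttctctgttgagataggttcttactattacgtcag

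Runx1, on chr16:92601466-92826149 (minus strand), encodes the RUNX factor of early hematopoiesis and of granulosa cells. Its strongest site, site 1, did not lie in Runx1 itself. It was in intron 1 of 5 of Clic6, a member of the chloride intracellular channel family, 85.3 kb beyond the 3′ end of Runx1 and 18.1 kb from the transcription start site (TSS) of Clic6, the nearest coding TSS. In its 200 bp the signal was 5.42, 5.79 and 8.19 in ChIP replicates 1, 2 and 3, and 0.810 and 0.584 in Input replicates 1 and 2. Every ChIP library was above both inputs, with no overlap. The folds were 7.78, 8.30 and 11.8, with a mean of 9.28 ± 2.16 (SD, n = 3). The rise was narrow. From 1 to 2 kb away the ChIP signal was 0.282, 0.272 and 0.263, below the 0.436 and 0.481 of the inputs.

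Runx1 site 2 was intergenic, 22.3 kb beyond the 3′ end of Runx1, and its nearest coding TSS was that of Clic6 at 81.1 kb. The signal was 3.08, 2.57 and 3.63 in the ChIP libraries and 0.894 and 0.530 in the inputs. The ChIP libraries were all higher than the inputs, but replicate 2 was under the 4-fold mark, with folds of 4.33, 3.60 and 5.09 (mean 4.34 ± 0.74, SD, n = 3).

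Runx1 site 3 was the only one inside the Runx1 gene, in intron 5 of 7, 45.8 kb from the nearest Runx1 TSS of a transcript in the GENCODE basic set. Its signal was 2.68 and 2.54 in ChIP replicates 1 and 2 but 0.939 in replicate 3, against 0.496 and 0.726 in the inputs. Replicate 3 was close to the inputs, and the folds were 4.38, 4.15 and 1.54 (mean 3.36 ± 1.58, SD, n = 3). This site thus rested on 2 of the 3 libraries.

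Just outside the calling rule, a window in intron 4 of Runx1 (chr16:92680401-92680600) had folds of 3.68, 7.12 and 3.72, with signals of 1.53, 2.95 and 1.54 over inputs of 0.475 and 0.354. Its mean fold, 4.84 ± 1.97 (SD, n = 3), was above that of site 3, but only replicate 2 was over 4-fold. No other uncalled window of the 4 regions had a higher mean fold.

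Cbfb, on chr8:105170674-105217989 (plus strand), held 1 site, in intron 3 of 5 and 15.3 kb from its own TSS, which was also the nearest coding TSS. The signal was 2.44, 3.51 and 3.00 in the ChIP libraries and 0.490 and 0.440 in the inputs. All 3 ChIP libraries were above both inputs, which follows from a fold over 4 in each, and by more than they differed from each other. The folds were 5.24, 7.54 and 6.46 (mean 6.41 ± 1.15, SD, n = 3). From 1 to 2 kb away, the ChIP signal of 0.469, 0.448 and 0.411 was at the level of the inputs, 0.475 and 0.407. The adjacent window chr8:105186001-105186200 was just outside the rule, with folds of 3.55, 3.18 and 3.13.

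**Figure D1:**
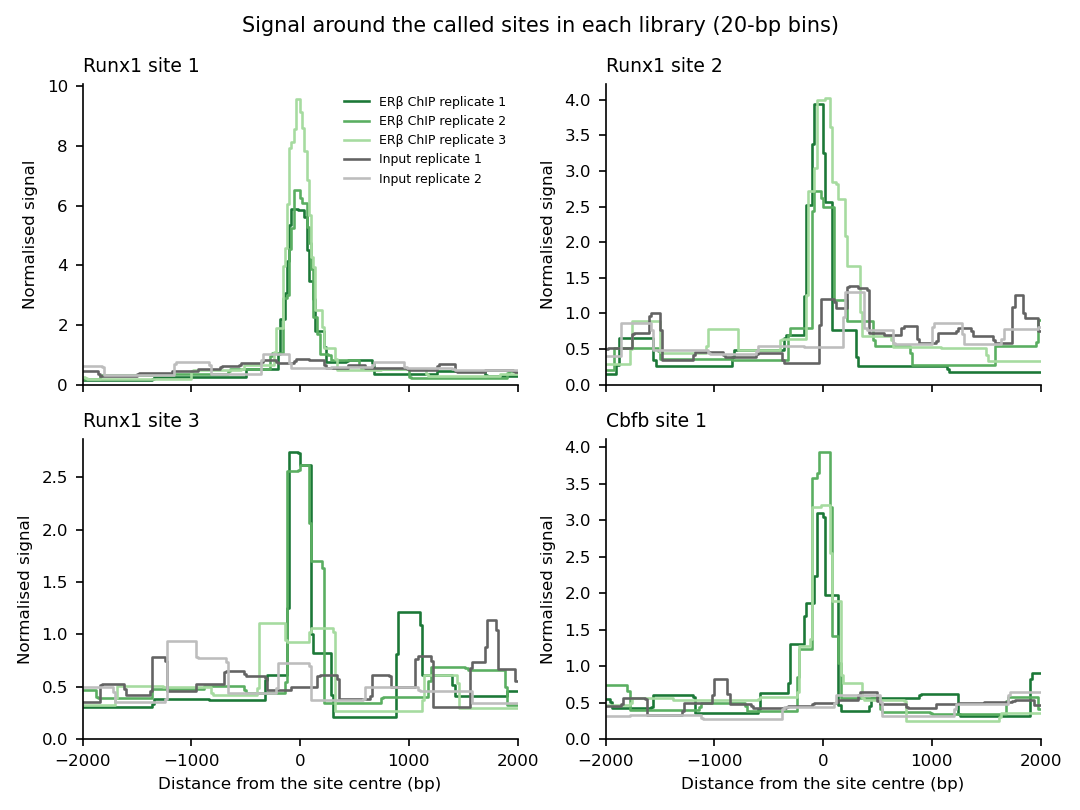
Normalised signal in 20-bp bins (y axis, own scale in each panel) against distance in bp from the centre of each of the 4 sites, one line per library. ChIP rises over the inputs close to the centre at Runx1 site 1, Runx1 site 2 and Cbfb site 1, while at Runx1 site 3 replicate 3 reaches only 1.11 in its highest bin, against 2.74 and 2.62 in replicates 1 and 2.

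Runx2, on chr17:44495987-44814797 (minus strand), encodes the master factor of bone formation and is also induced in luteinizing granulosa cells. Its region of 2595 windows was the largest of the 4 and held no call. Its strongest window, chr17:44430001-44430200, was intergenic and lay beyond the 3′ end of the gene. The signal there was 1.204, 1.84 and 0.480 in the ChIP libraries and 0.529 and 0.320 in the inputs, so that replicate 3 fell between the inputs. The folds were 2.84, 4.34 and 1.13 (mean 2.77 ± 1.604, SD, n = 3). The next one, in intron 2 of Supt3, a gene that overlaps Runx2 on the opposite strand, had folds of 3.10, 1.31 and 3.09.

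Runx3, on chr4:135120652-135177990 (plus strand), also had no call in its 1287 windows. The strongest window by mean log2 fold, chr4:135037801-135038000, was intergenic, 82.8 kb upstream of the gene start, with signals of 0.950, 1.08 and 0.30 in the ChIP libraries and 0.425 and 0.385 in the inputs. Replicate 3 was below both inputs. The folds were 2.35, 2.66 and 0.741 (mean 1.92 ± 1.03, SD, n = 3). A window in intron 1 of Runx3, 3.65 kb from its start, passed 4-fold in replicate 2 only, with folds of 0.706, 4.48 and 1.33.

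By the mean log2 fold of the strongest window in each region, the order was Runx1 at 2.70 ± 0.29, Cbfb at 2.57 ± 0.19, Runx2 at 1.27 ± 0.99 and Runx3 at 0.74 ± 1.02 (SD, n = 3). The Runx1 window is that of site 1, which lies in Clic6 and not in the Runx1 gene. Inside the Runx1 gene the strongest window, that of intron 4, had a mean fold of 4.84, below the 5.97 of the Cbfb window. Runx1 and Cbfb overlapped, with folds from 5.56 to 8.17 and from 5.20 to 6.74, and Runx2 and Runx3 overlapped as well. Every value of the first pair was above every value of the second. The first pair are called windows and the second uncalled ones, so the rule itself favours this gap. Read against all protein-coding genes, 19.99% had a strongest window at least as high as that of Runx1, 22.5% as that of Cbfb, 54.7% as that of Runx2 and 94.2% as that of Runx3.

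**Figure D2:**
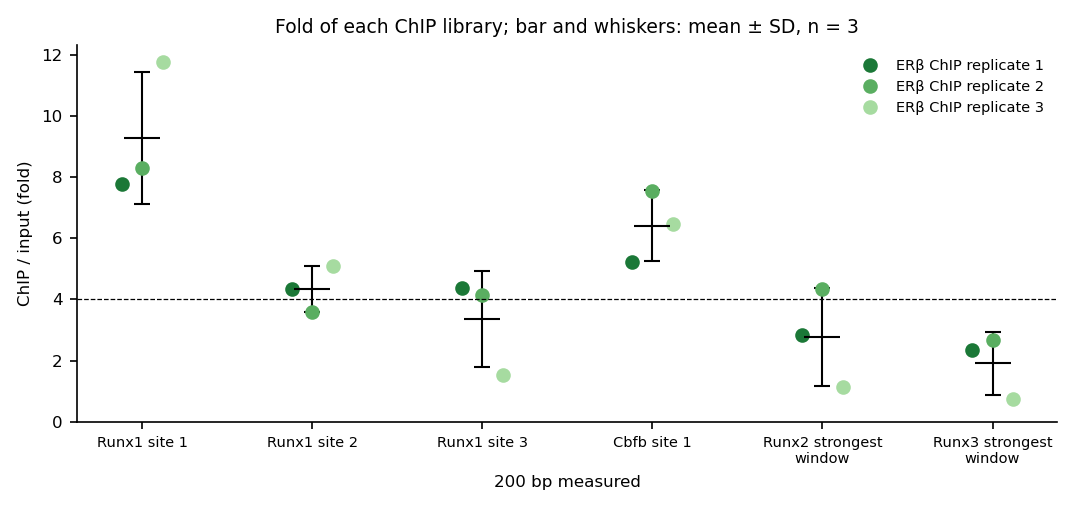
Fold of ChIP over input (y axis, linear, from 0) in each ChIP library for the 4 sites and for the strongest windows of Runx2 and Runx3, with the mean and SD of 3 libraries and a dashed line at 4-fold. Sites were measured in the 200 bp of highest ChIP signal, but Runx2 and Runx3 in fixed windows, so the 2 kinds are not measured alike. For Runx1 site 1 the mean was 9.28 in the former and 6.59 in its fixed window. All 3 libraries are above the line at Runx1 site 1 (7.78 to 11.8) and Cbfb site 1 (5.24 to 7.54), and replicate 3 is the low one at Runx1 site 3 (1.54), Runx2 (1.13) and Runx3 (0.741).

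The calls were made from folds in single libraries, and these counts describe what the rule used. In the Runx1 region 4, 4 and 3 windows were over 4-fold in ChIP replicates 1, 2 and 3, and Cbfb had 1 in each. Runx2 and Runx3 each had 1 such window in replicate 2 and 0 in the others. Over the genome the share was 0.0387% in replicate 1, 0.0567% in replicate 2 and 0.0538% in replicate 3.

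The fold in each ChIP library was also listed for the windows that were over 4-fold in both others, here called the held-out fold. These are the same folds that made the calls, so they describe the called windows and give them no further support. The Cbfb window had held-out folds of 5.20, 6.74 and 5.96 in replicates 1, 2 and 3. The window at the Runx1 site 1 summit had 5.56, 6.03 and 8.17, and the one beside it 4.91, 4.75 and 7.38. The medians over all windows of the genome listed the same way were 5.52, 7.66 and 7.25. At Runx1 site 2 the held-out fold was 3.52 in replicate 2, and at site 3 it was 1.57 in replicate 3.

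Having a site nearby was common. Of the 21755 protein-coding genes, 7798 (35.8%) held at least 1 called window within 100 kb. Among the 644 genes whose regions spanned 400 to 600 kb, as those of Runx1 and Runx2 do, 45.7% held a call, against 33.3% of those under 250 kb, such as Cbfb. At least 3 sites, as at Runx1, were held by 1116 genes (5.13%), and by 9.94% of the genes with regions of 400 to 600 kb. Of the 4 members, 2 held a site, and nothing particular to them is read from that count.

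**Figure D3:**
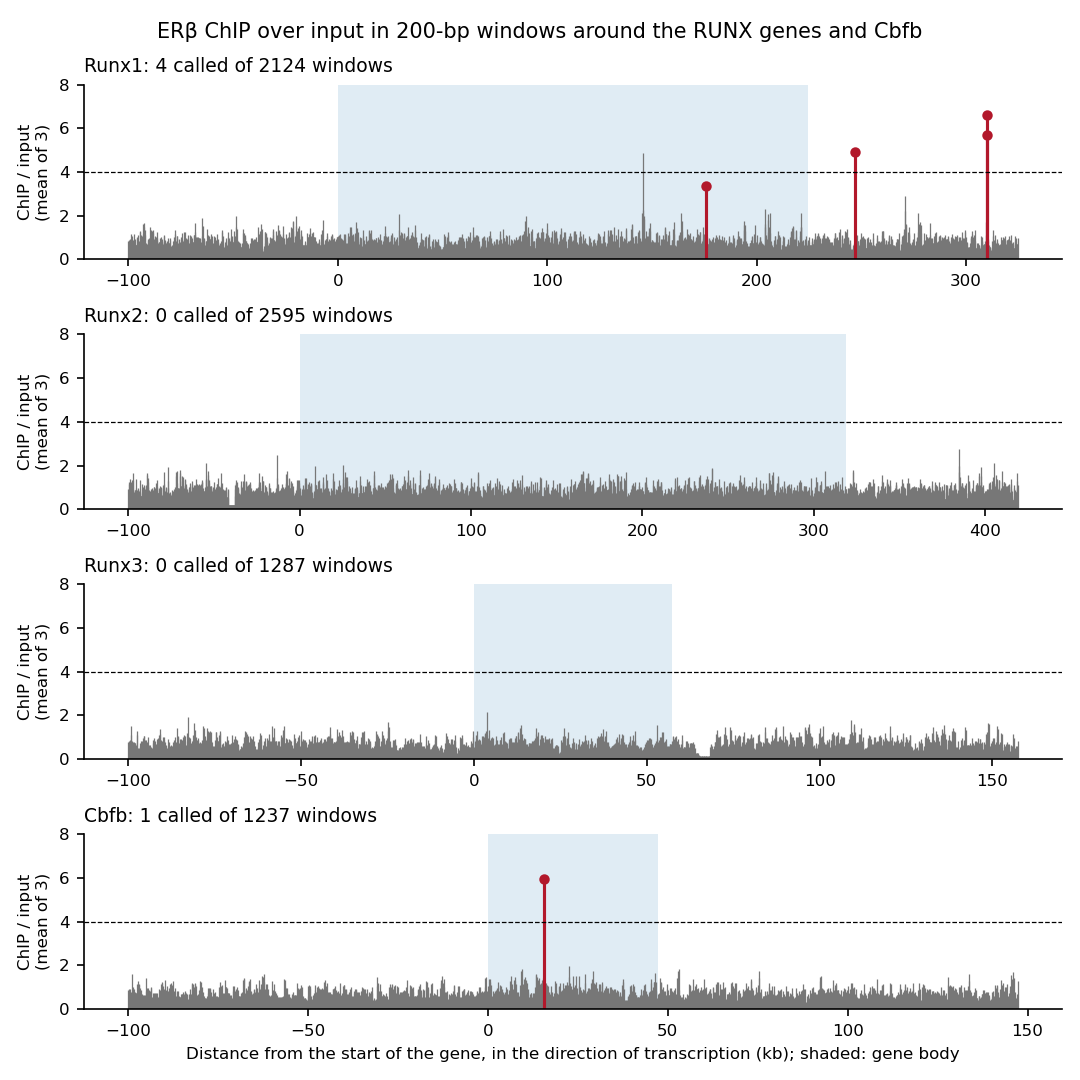
Mean fold of the 3 ChIP libraries over input in each 200-bp window (y axis) against distance from the gene start in kb, in the direction of transcription, for the 4 regions, with the gene body shaded, called windows in red and a dashed line at 4-fold. Calls stand in the 3′ part of Runx1 and beyond it and in the Cbfb body, and none in Runx2 or Runx3; the tall grey line in Runx1 is the uncalled window of intron 4 with a mean of 4.84.

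The promoters held no called window, and the site nearest to a coding TSS of the 4 genes was that of Cbfb, at 15.3 kb. The 4 genes have 9 coding TSS positions in the GENCODE basic set, counted 500 bp or more apart, among them the distal and proximal start sites that give the RUNX genes their long and short isoforms. In the 1 kb centred on each, the mean fold ranged from 0.836 at the second Runx3 TSS to 1.15 at the third Runx1 TSS. A narrow rise is averaged down over 1 kb, so these folds are not comparable with the 200-bp folds of the sites. At the Cbfb TSS the signal was 0.358, 0.938 and 1.53 in the ChIP libraries and 1.13 and 0.721 in the inputs, so the groups overlapped. The highest fold in any single library was 1.83, at the third Runx2 TSS in replicate 3.

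Over whole regions, ChIP signal was lower than input. The mean signal of the Runx1 region was 0.397, 0.444 and 0.456 in the ChIP libraries and 0.485 and 0.475 in the inputs, a ratio of 0.901. For Runx2 the values were 0.393, 0.408 and 0.421 against 0.444 and 0.429 (ratio 0.934). For Runx3 they were 0.337, 0.381 and 0.437 against 0.446 and 0.461 (ratio 0.848), and for Cbfb 0.389, 0.418 and 0.462 against 0.504 and 0.483 (ratio 0.858). The groups did not overlap in any of the 4, and the same held for 50.9% of all protein-coding genes. Over all protein-coding genes the median ratio was 0.926. An exact permutation test for higher signal in ChIP, one-sided over the 10 splits of 3 and 2 libraries, gave p = 1 for each gene, and 1 after adjustment over the 4. In the other direction the permutation p was 0.1, the smallest value this design allows. Comparing each ChIP library with the input that its track name groups it with adds nothing, since every ChIP library was below both inputs. With each library scaled to its median window the ratios were 0.947, 0.982, 0.892 and 0.902 in the same order of genes, and the groups overlapped. The GC content of the regions was 46.7% (Runx1), 43.1% (Runx2), 50.4% (Runx3) and 46.1% (Cbfb), beside 41.8% in the genome, and its part in the lower ChIP signal was not tested.

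Across all windows of the genome, limma on log2(signal + 0.5) called 0.0153% higher and 0.00805% lower in ChIP at an adjusted p under 0.05. In the 4 regions it called 0 of 7207 windows in either direction, while at an unadjusted p under 0.05 36 were higher (0.50%) and 385 lower (5.34%). Over the genome 1.42% of the windows were higher and 3.14% lower at that unadjusted p, so lower windows outnumbered higher ones there too. The window nearest to passing was that of Runx1 site 1 (chr16:92516201-92516400), with a log2 fold change of 2.08 (SE 0.46) and an adjusted p of 0.159, followed among the higher windows by that of Cbfb at 1.76 (SE 0.42) and an adjusted p of 0.277 (limma). This absence of calls depended on the settings. With a pseudocount of 0.1 the windows of Runx1 site 1, Runx1 site 2 and Cbfb passed (4 in all), and with a variance prior that has no trend 6 passed, all of them higher in ChIP. Since limma compared the same ChIP and input tracks as the calling rule, its values at called windows describe them and give no further support.

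The sequence of the sites, which had no part in the calls, was searched on both strands. The ERE is GGTCA, 3 bases of any kind and TGACC, and positions are counted from 1 at the 5′ end of the plus strand. The Cbfb site held the closest match, GGGCAGGGTGACC at chr8:105186220-105186232, with the single substitution T3G. Runx1 site 1 differed at 2 positions, G1T and C12T, and Runx1 site 3 at G2C and A11C. The closest 13 bases of Runx1 site 2 had 3 substitutions, C4G, G10C and C13A. With at most 2 mismatches, 3 of the 4 sites had an ERE, beside 69.6% of the 4019 sites of the genome and 6.68% of all 200-bp windows. With at most 1 mismatch, 1 of 4 did, beside 34.9% of all sites and 0.529% of all windows.

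A complete half-site, GGTCA or TGACC, was present in all 4 sites. This search was made after the sequences had been seen. It matched 86.3% of all sites and 26.5% of all windows. At Runx1 site 1 and site 3 the half-site stood outside the bases in capitals, on the side of the lower coordinates from the centre, and at site 2 it lay inside them. The Cbfb site had both the TGACC of its ERE and a separate GGTCA 44.5 bp past the centre.

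Motifs of other factors were searched as well, and with 4 sites their counts are a description only. The GATA motif (GATAA after A or T), bound by the GATA factors of granulosa cells, had 2 matches, both in Runx1 site 2, beside 29.3% of all sites and 24.1% of windows with a match. No site held the NR5A motif (C or T, then CAA, then the half-site), which is read by LRH-1 and SF-1. This exact motif occurred in 7.32% of all sites and 0.693% of all windows. The AP-1 motif (TGACTCA or TGAGTCA) and the FOXO motif (TGTTTAC) were absent as well. They occurred in 6.59% and 5.23% of all sites, and in 3.11% and 2.98% of all windows. The RUNX motif itself (TGTGGT or TGCGGT) was in none of the 4 sites, in 17.6% of all sites and in 14.8% of all windows. In 400 bp around the centres, 2 of the 4 sites held the GATA motif and 1 the RUNX motif, beside 44.2% and 31.3% of all sites, and the other 3 motifs were in none. Missing letters in these stretches say nothing on the factors.

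EREs without called signal were far more numerous than those with it. The 4 regions held no ERE without mismatch and 39 with 1, of which 10 were near Runx1, 15 near Runx2, 10 near Runx3 and 4 near Cbfb. In the 200 bp around each, the mean fold of the 39 had a median of 0.875 and ranged from 0.172 to 6.09. Only the Cbfb element was over 4-fold in at least 2 libraries, with 5.23, 7.01 and 6.02. Over the genome this was so for 1.92% of the 70103 EREs with 1 mismatch and for 12.5% of the 2357 without one.

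The elements with the highest mean fold near the other 3 genes are set beside that of Cbfb for comparison. They lie at chr16:92712979-92712991, chr17:44491799-44491811 and chr4:135021277-135021289.
Runx1 element: GGGCATTTTGACC
Runx2 element: GGTCGTCATGACC
Runx3 element: GCTCAAGATGACC
Cbfb element: GGGCAGGGTGACC
The Runx1 element has the same substitution as that of Cbfb, T3G, and differs from it only in the spacer, yet its folds were 0.864, 1.23 and 1.79. The Runx2 element (A5G) had folds of 0.707, 1.70 and 2.87, and the Runx3 element (G2C) had 1.14, 0.810 and 2.46. Besides the Cbfb element, none of them reached 4-fold in any library.

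**Figure D4:**
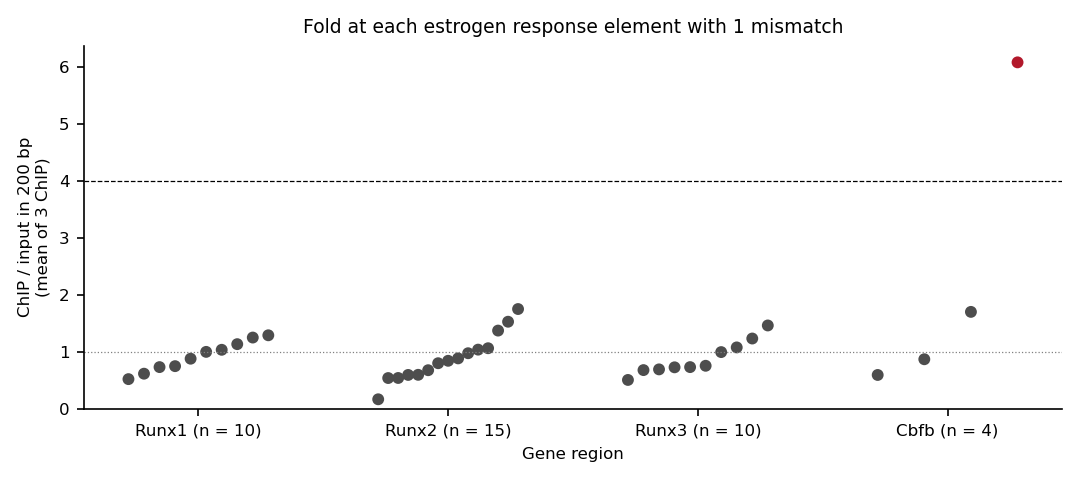
Mean fold of the 3 ChIP libraries over input (y axis, linear, from 0) in the 200 bp around each of the 39 EREs with 1 mismatch, grouped by gene region and sorted by value within each. The Cbfb element stands at 6.09, and the other 38 points lie under 2, scattered around the dotted line at 1.

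Other genes of the RUNX pathway were taken from a list of 27 partners and regulators. Of these, 10 (37.0%) had a site within 100 kb, beside 35.8% of all protein-coding genes, and the median of their strongest windows was 3.18-fold, beside 2.79-fold over all genes. The highest was near Ets2, an ETS factor, with folds of 15.8, 20.9 and 22.3. The folds given for these genes are those of the strongest window in the gene body or within 100 kb. That window may lie nearer to another gene. Cbfa2t3, a corepressor of the ETO family, had 15.8, 19.7 and 20.6 and was the richest in sites, with 5. Kat6b, a histone acetyltransferase, had 8.80, 11.3 and 20.02. Pim1, a kinase, followed with 7.73, 12.5 and 9.17, and Smad3, a mediator of activin and TGFβ signals, with 8.77, 10.8 and 8.05. The ETO family was not uniform. Runx1t1 had no site, and its strongest window had folds of 1.82, 2.05 and 2.10, all under those of Cbfa2t3. Of the groucho corepressors, Tle2 and Aes are neighbours and shared 1 site, so that the count of 10 rests on 9 separate loci.

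Of 14 genes linked to RUNX factors or CBFβ in granulosa and luteal cells, 5 (35.7%) had a site within 100 kb, beside 35.8% of all protein-coding genes. Their folds too are those of the strongest window in that region, which may lie nearer to another gene. Foxl2, a factor of granulosa cell identity, had folds of 19.3, 28.4 and 27.6. Wnt4, a signal of ovarian development, had 20.3, 24.9 and 23.9, and Fabp6, a bile acid binding protein, had 19.9, 21.3 and 18.0. Lhcgr, the receptor of luteinizing hormone, had 8.16, 9.53 and 16.5, and Mt3, a metallothionein, 5.50, 10.6 and 7.17. In each of the 5, every ChIP library was over 4-fold. Ptgs2, the prostaglandin synthase of ovulation, had none, with 1.09, 3.00 and 2.16.

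For scale, Greb1, a classical estrogen receptor target, had 5 sites and folds of 21.1, 28.1 and 26.3 in its strongest window. The mean of 25.2 ± 3.62 (SD, n = 3) was above that of any RUNX gene or Cbfb. The genes whose strongest window was most like that of Runx1, by the Euclidean distance of the log2 folds in 3 libraries, were Rnf114 and Snai1, which share 1 window with folds of 5.82, 6.20 and 8.08 (distance 0.0777). Those most like Cbfb were Osbpl2 (5.16, 6.95 and 6.06, distance 0.0502) and Trpc6 (5.02, 6.61 and 6.05, distance 0.0633).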

How the data were processed

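The authors aligned ChIP-seq reads with STAR to GRCm38 (mm10), kept uniquely mapped reads and worked with HOMER, per the labels and the methods of the study. The deposited tracks hold signal (coverage), scaled by the authors to a common total, averaged over segments and rounded. The median segment was 269 bp in Input replicate 1 and 481 to 519 bp in the other tracks. Depth cannot be read from the tracks, although the study reports aligned reads for the ChIP samples, and narrow peaks may be flattened. How duplicates were treated is not given in the sources used here. The 3 ERβ ChIP and 2 Input libraries were grouped by their titles, and the knockout ChIP libraries were not analysed here. The 4 genes, the gene lists and the tests were chosen with earlier results of these data known.

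Windows of 200 bp without N on the autosomes and chromosome X (12796535) were called at 4-fold over the mean of both inputs in at least 2 ChIP libraries, with genes from GENCODE M21. limma 3.58.1 (R 4.3.3; lmFit, eBayes with a trend, two-sided, Benjamini-Hochberg over 12126335 windows with a mean signal of at least 0.1) was fitted on log2(signal + 0.5), which understates changes at low signal, in place of a count test, since tracks hold no counts. The scripts were tested on simulated data. Named were the 4 genes, all sites, the nearest coding TSS, up to 5 genes with a site per list by highest fold, the 2 most similar genes per member with a site, and Greb1. Runx1t1, Ptgs2, Tle2, Aes and the half-site were added after their values were seen. Track names set ChIP replicate 1 and Input replicate 1 apart from the other 3 libraries.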

Additional observations from a re-analysis of the deposited data

How the results depend on the processing

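The 5 called windows of the 4 regions became 9 at a threshold of 3 (Runx1 6, Runx2 1, Cbfb 2), 0 at a threshold of 8, 3 when all 3 ChIP libraries had to pass, 3 with windows shifted by 100 bp, 2 with the input floor at 2 times the genome mean (both at Runx1), 3 with flanks of 50 kb and 2 in gene bodies alone. Without one ChIP replicate they numbered from 3 to 4, with 3 when replicate 1 was left out (2 at Runx1 and 1 at Cbfb). Both remaining libraries then had to pass, so the count could only stay the same or fall. Either input alone, the floor at 0.5 times the genome mean, or the input whose track name groups it with each ChIP library gave 5 each time. Protein-coding genes with a site fell from 7798 to 3227 at a threshold of 8 and to 1690 in gene bodies alone.

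By limma, 0 windows of the 4 regions were called higher. That count was 4 with a pseudocount of 0.1, 6 with eBayes without a trend, 1 with shifted windows and 1 with windows of 1 kb, both at Runx1 site 1. It was 0 with each library left out in turn, and so was the count of lower windows. With the replicate number as a block, 0 were higher and 2 lower, 1 each at Runx3 and Cbfb, neither in a site. Replicate numbers gave no evidence of pairing, since the deviations of ChIP and Input replicate 1 correlated at 0.036 and those of replicate 2 at -0.011 over 1-kb windows, and only 2 pairs exist.

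The mean log2 fold of the strongest Runx1 window rose from 2.70 to 3.00 with Input 2 alone and to 3.17 with shifted windows, by more than its SD of 0.29. EREs fell from 3 to 1 of 4 sites with at most 1 mismatch. The ratios of region means stayed under 1 in all 8 alternatives for each gene. They reached 0.982 for Runx2 with libraries scaled to their median window and 0.988 for Cbfb in its gene body. Where a library was left out, a ratio under 1 was fixed in advance, since every ChIP library was below both inputs. Calls over 8-fold left no held-out reading. The cause of these shifts was not tested.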

Other observations

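The called windows nearest to the 4 genes but outside their regions all lay over 200 kb from the gene bodies. For Runx2 this was a window 252 kb away with folds of 4.82, 6.10 and 6.67, nearest to the TSS of Clic5, and for Runx3 one 231 kb away with folds of 3.05, 5.71 and 7.98, nearest to Tmem50a. For Runx1 it was one 260.0 kb away near Kcne1 (3.78, 5.75 and 5.84). For Cbfb it was one 251 kb away with 11.7, 13.9 and 12.9, which was 0.11 kb from the TSS of Tppp3 and higher in every library than the site in Cbfb itself. Apart from Runx1 and Runx2, where Clic6 and Supt3 share the region, the Runx3 region held part of Clic4 and the Cbfb region 13 other coding genes, and of all these neighbours only Clic6 had a called window in its body.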
